A study of Mus musculus with 3 samples.

Results

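The genes described here are 42 members of the Wnt pathway, chosen by name from the ligands, receptors, secreted inhibitors, intracellular components and target genes of the pathway. All 42 were matched to the array through the RefSeq accessions of their probes, out of 20825 named genes, and each was read from its brightest probe. The samples were tail-tip fibroblasts, the connective tissue cells that grow out of mouse tail skin, on day 8 after introduction of 4 reprogramming factors (Oct4, Sox2, Klf4 and c-Myc). RNA was hybridised to 1-colour oligonucleotide arrays. The 3 groups were cells of wild-type mice aged 2 months (young WT), of wild-type mice aged 22 months (old WT), and of 22-month-old mice without p16, a cyclin-dependent kinase inhibitor (old p16-/-). All 3 groups received the reprogramming factors, so no untreated cells enter any comparison. Each group is 1 array. The design text speaks of 2 experiments, each on other donor mice, of which 1 array per group is described here. The number of donors behind an array was not given in the sources used here. No value below has a replicate check or a test. Differences are described by size, and 2-fold, a log2 ratio of 1 or -1, is the limit used. The ratio of old WT over young WT is called the age comparison and that of old p16-/- over old WT the p16 comparison, so a value below 0 means a lower signal on old WT in the first and on old p16-/- in the second.

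Wnt ligands are secreted lipid-modified proteins that bind Frizzled receptors. With the co-receptors Lrp5 and Lrp6 they stop the destruction complex of Axin and Apc from degrading beta-catenin, which then acts with TCF/LEF factors on target genes. Another branch, of which Wnt5a and the receptor Ror2 are the best known parts, works without beta-catenin on cell shape and movement. Several families of secreted proteins capture the ligands or block the co-receptors. In skin the pathway is known for hair follicle growth and for the identity of dermal fibroblasts, and in reprogramming cultures it is known as an influence on pluripotency.

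All arrays came from 1 slide and 1 scan, and 57.4% to 61.6% of the 43020 spots were called well above background by the scanner software. All 13 fibroblast markers were above background on each array, but not at like levels. In the p16 comparison 2 were at least 2-fold higher (Pdgfra 3.03-fold and Fap 2.83-fold) and 2 lower (Thy1 15.9-fold and Col5a1 2.16-fold), and none was 2-fold apart in the age comparison. Of 12 pluripotency genes 7, 7 and 8 were above background on young WT, old WT and old p16-/-, Nanog among them with signals of 264, 217 and 196. Pou5f1, Zfp42, Esrrb and Dppa3 were not above it on any array. Pou5f1 encodes the introduced factor Oct4, and Sox2, another introduced factor, was above background on old p16-/- only (signal of 72.8). Whether the probes of these 2 genes detect the introduced copies is not known here. Cdkn2a, the locus of p16 and also of Arf, had signals of 62705, 65464 and 28065 in the order young WT, old WT and old p16-/-, the order in which signals are given throughout. Whether its probe lies in the deleted part is not known here, so it does not check the genotype. Other genes separated the arrays as well. Of 4 Y-linked genes, 3 were above background on young WT and 0 on the old arrays, while Xist, expressed from an inactive X chromosome, had signals of 1548 and 1387 on the old arrays and was not above background on young WT. Donor age and sex-linked expression therefore cannot be told apart in comparisons with young WT. Of 14 macrophage and leukocyte markers 13, 12 and 4 were above background, and the median log2 ratio was -2.20 in the age comparison, -1.97 in the p16 comparison and -4.23 for old p16-/- over young WT, where 11 of 14 were at least 2-fold lower. Their summed signal (44371, 26517 and 17672) differed less, Itgam alone having 19992, 19071 and 14934. Ptprc, a general leukocyte marker of this list, went the other way. It was above background on old p16-/- only (signal of 89.9) and at least 2-fold higher in the p16 comparison. The summed signal of 8 smooth muscle and pericyte markers was 364902, 409637 and 130305, with 4 of 7 counted at least 2-fold lower in the p16 comparison. The counted Schwann cell and melanocyte markers had medians of 0.96, 0.88 and 1.67 in the 3 comparisons, with 5 of 7 at least 2-fold higher on old p16-/- than on young WT, S100b 9.91-fold and Ngfr 5.42-fold. The 9 cartilage and bone markers on the array summed to 43966, 65022 and 127194, with 3 of 8 counted at least 2-fold higher in the p16 comparison and Comp 2.89-fold lower. Most of these sums came from Spp1 (37908, 52998 and 80342) and Col2a1 (2580, 4376 and 42066.5), while Sox9 and Runx2 stayed within 2-fold. Des and Sp7, defining markers of muscle and of bone, were not above background on any array. The 10 interferon response genes read summed to 39319, 139617 and 11948. The part of these differences in the Wnt values was not tested, and in bulk RNA fewer cells of a type and less RNA per cell cannot be told apart.

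Of the 42 genes, 36 were well above background on all 3 arrays. Rspo1 and Axin2 were above it on the WT arrays only. Their ratios with old p16-/- are taken against the spot's own level for Axin2 and against the dimmest level called above background for Rspo1. Wnt2, Dkk1, Sfrp5 and Nkd1 were not above it on any array, which left 38 genes in each comparison. In the age comparison 5 of 38 were at least 2-fold higher (Wnt10b, Wif1, Dkk3, Frzb and Ccn5) and none lower, or 13.2% against 6.09% of the 14546 genes counted over the whole array (2.92% higher and 3.17% lower). In the p16 comparison 1 gene (Lef1) was at least 2-fold higher and 9 lower (Wnt5a, Wnt9a, Wnt10b, Ror2, Dkk2, Sfrp1, Frzb, Rspo1 and Axin2), or 26.3% against 12.5% of all genes (5.87% higher and 6.61% lower). On old p16-/- against young WT, 6 were higher (Wif1, Dkk3, Rspo2, Rspo3, Lef1 and Ccn5) and 5 lower (Wnt5a, Ror2, Dkk2, Sfrp1 and Axin2), or 28.9% against 13.3% (6.34% higher and 6.96% lower). The 3 comparisons share arrays, so a high value on old WT raises the first ratio and lowers the second. The median log2 ratio over the 38 genes was 0.26 in the age comparison, -0.32 in the p16 comparison and -0.14 for old p16-/- over young WT. Over all counted genes it was 0.00, 0.02 and 0.03. With a normexp background correction, an alternative that starts from the median spot signal, 3 and 5 of the 38 were past 2-fold in the age and p16 comparisons, beside 3.59% and 8.29% of all genes.

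**Figure D1:**
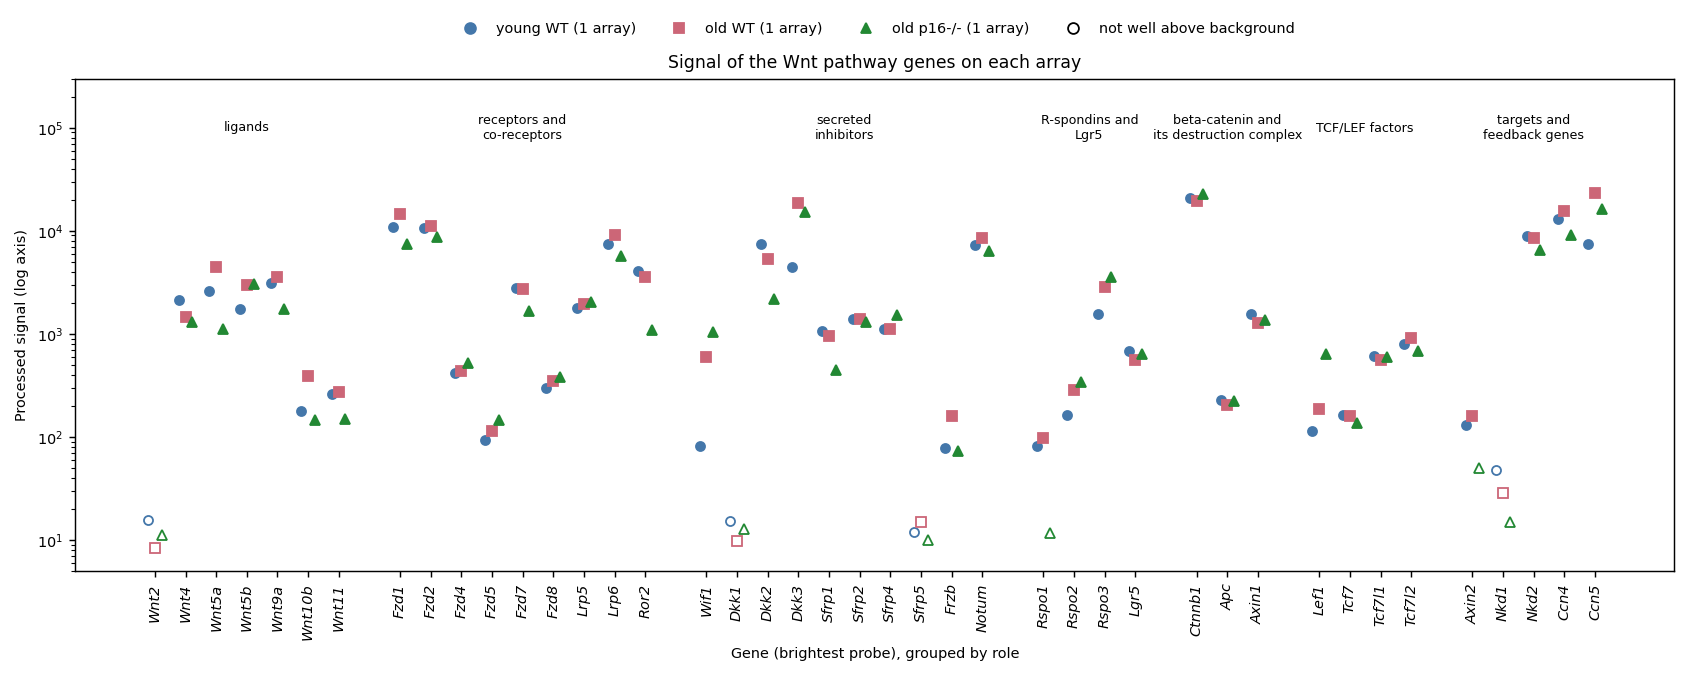
Processed signal (log axis, linear intensity units) of the brightest probe of each of the 42 genes, coloured by array (young WT, old WT, old p16-/-), with 1 array a group; open symbols are not well above background. Heights of different genes come from different probes and are not comparable, whereas the 3 symbols of 1 gene are, and Wif1 runs from 80.6 on young WT to 1040 on old p16-/-.

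Every gene in this set rests on a probe spotted once. The scanner software gives an error for each spot, and the errors of both spots of a ratio were combined. Over the 38, 36 and 36 ratios measured on both arrays, the median error was 0.20 on the log2 scale in each comparison, up to 0.34, 0.29 and 0.36. For Rspo1 and Axin2, not above background on old p16-/-, the combined errors with that array were larger, up to 1.47 for Rspo1. Among probes spotted 10 times on these arrays, the median SD of the log2 signal over replicate spots was 0.05 on each array at signals of at least 1000 and 0.14 to 0.18 at signals of 50 to 300. In that dim range 1%, 1.85% and 2.04% of single spots, in the same order of arrays, lay at least 2-fold from the median of their probe, against 0 of 1750, 0 of 1700 and 0 of 1720 at 1000 or more. These errors cover the reading of a spot, not the spread between donors or cultures.

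Of the ligands, 6 of 7 were measured, and their arrays differed most between old WT and old p16-/-, with a median log2 ratio of -0.95. Wnt5a, the main ligand of the beta-catenin-independent branch, had signals of 2593, 4429 and 1114. It was highest on old WT and lowest without p16, with a log2 ratio of 0.83 in the age comparison, a 3.99-fold lower signal in the p16 comparison and a log2 ratio of -1.16 for old p16-/- over young WT. Wnt5b, its close relative, had signals of 1727, 2945 and 3062. It shared the log2 ratio of 0.83 between the WT arrays, yet stood at 0.05 in the p16 comparison, so the paralogues lay together with age and apart without p16. Wnt9a, a ligand of joint and mesenchymal tissue, had signals of 3098, 3581 and 1750, and its ratio of -1.04 in the p16 comparison passed 2-fold narrowly. With each array's median subtracted in place of the 75th percentile it was -0.99.

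Wnt10b, a ligand that acts through beta-catenin in bone and hair follicle, had dim signals of 180, 387 and 146. It was high on old WT alone, at 1.17 over young WT and -1.42 in the p16 comparison, while both other arrays lay near each other (-0.25). With the normexp correction (offset of 50) these were 0.74 and -0.86, within 2-fold. Wnt11, a ligand of the beta-catenin-independent branch, had signals of 259, 272 and 150, and its ratio in the p16 comparison was -0.86. Wnt4, known from kidney and gonad development, had signals of 2135, 1445 and 1294. Of the 6 measured ligands it alone had a ratio below 0 in the age comparison, at -0.50.

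All 9 receptors and co-receptors were measured, and none was 2-fold apart between the WT arrays, with log2 ratios from -0.14 to 0.47. Ror2, the tyrosine kinase receptor of Wnt5a, had signals of 4097, 3578 and 1092. The WT arrays lay close together and the p16-/- array was 3.29-fold lower than old WT (log2 ratio -1.72) and 3.61-fold lower than young WT (-1.85). No other receptor of the set was past 2-fold in any comparison. Ror2 and its ligand Wnt5a were thus both lower on old p16-/- than on either WT array.

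Among the Frizzled receptors, Fzd1 came nearest to 2-fold, with signals of 10912, 14527 and 7405 and a ratio of -0.98 in the p16 comparison. With quantile normalization it passed 2-fold. Fzd7 had signals of 2753, 2736 and 1650 (-0.73 in the p16 comparison) and Fzd2 had 10541, 11129 and 8639 (-0.37). These 3 receptors were thus lower on old p16-/- than on old WT. Fzd4 and Fzd8 were slightly higher there, at 0.26 and 0.11. Fzd5 was dim, with signals of 94.0, 114 and 147, and stood at 0.35. A second probe of Fzd5 gave -0.11, so no direction is given for it. The co-receptors also parted. Lrp6 had signals of 7423, 9062 and 5675 (-0.68 in the p16 comparison), and Lrp5 had 1781, 1960 and 2043 (0.06). A second probe of Lrp6 gave -0.67.

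Among the secreted inhibitors, Wif1 (Wnt inhibitory factor), which binds the ligands directly, had the largest ratio of the set in both comparisons with young WT. It had signals of 80.6, 594 and 1040. Both old arrays were far above the young one, with log2 ratios of 2.94 for old WT (7.68-fold) and 3.75 for old p16-/- (13.4-fold) over young WT. These were ranks 29 of 14546 and 39 of 14281 among all counted genes, and with the normexp correction they were 2.05 and 2.78. Between the old arrays Wif1 was at 0.80.

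Dkk3, a divergent member of the Dickkopf family, had signals of 4416, 18478 and 15347. It too was high on both old arrays, 4.36-fold above young WT on old WT (log2 ratio 2.13) and 3.61-fold on old p16-/- (1.85). Dkk2, which binds Lrp5 and Lrp6, had signals of 7383, 5345 and 2184. It lay opposite to Dkk3 in both comparisons with young WT and on the same side of 0 in the p16 comparison (Dkk3 at -0.27), at -0.41 in the age comparison, -1.30 in the p16 comparison and -1.70 for old p16-/- over young WT. Dkk1, the best known inhibitor of the family, did not pass the background limit on any array.

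The secreted frizzled-related proteins, which carry a Frizzled-like domain that captures ligands, did not share 1 pattern. Sfrp1 had signals of 1063, 956 and 443 and was lower on old p16-/- than on both WT arrays, at -1.12 against old WT and -1.21 against young WT. The first of these was -0.99 with the normexp correction. Sfrp2 had signals of 1404, 1391 and 1290, with every ratio between -0.11 and 0.05. Sfrp4 had signals of 1115, 1109 and 1515, highest on old p16-/- at 0.44 over old WT. Frzb, a relative known from cartilage, had dim signals of 78.4, 161 and 73.5. It was high on old WT alone, as Wnt10b was, 2.14-fold above young WT and 2.20-fold above old p16-/-, or at log2 ratios of 0.59 in the age and -0.69 in the p16 comparison with the normexp correction. Notum, an enzyme that removes the lipid from Wnt ligands, had signals of 7238, 8460 and 6381 and stayed within 2-fold, with ratios of 0.29 and -0.41.

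**Figure D2:**
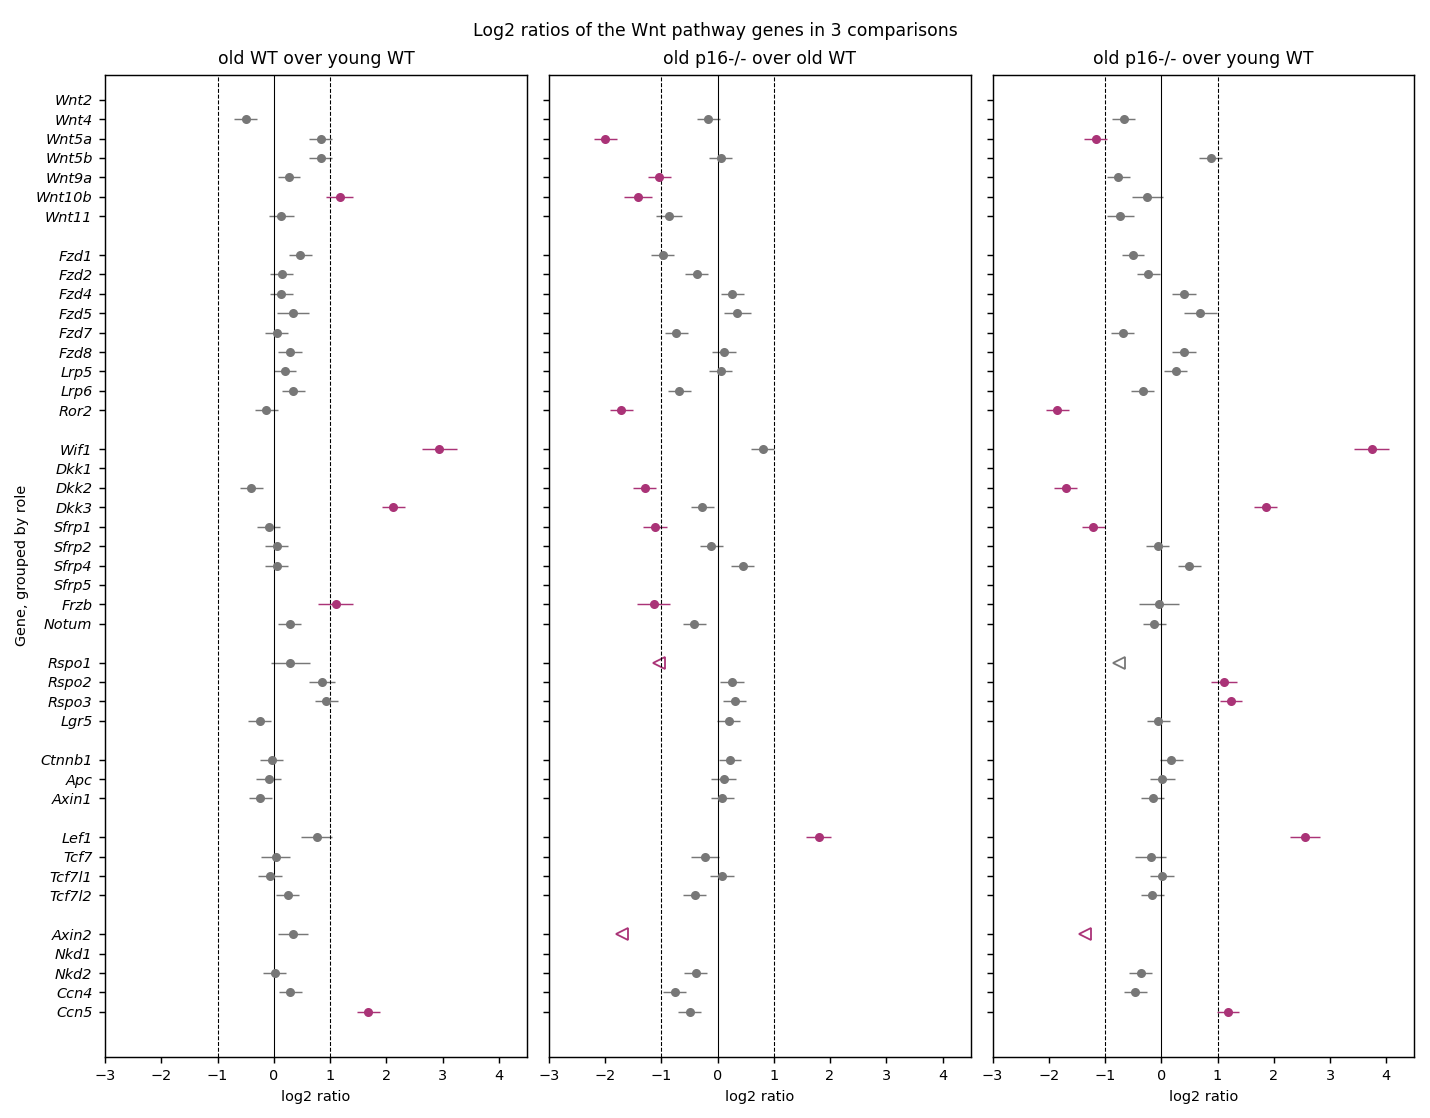
Log2 ratios of the genes in the 3 comparisons (horizontal axis), grouped by role; bars are the scanner software's combined error of both spots, open triangles are bounds where 1 array is not well above background, dashed lines mark 2-fold and coloured points lie past it. Wif1 and Dkk3 stand at 2.94 and 2.13 for old WT over young WT, and Ror2 and Dkk2 at -1.72 and -1.30 for old p16-/- over old WT.

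Promoter windows of 300 bases, 250 before to 50 after a transcription start, were taken from RefSeq on the GRCm38.p6 build, which held 35 windows for 26 of the 42 genes. They are shown for Wnt10b and Frzb, which were past 2-fold with age and without p16, for Wnt5b, the paralogue that parted from Wnt5a, and for Dkk2, the Dickkopf gene lower on old p16-/-. The letters searched were CTTTGAT, a core sequence bound by TCF/LEF factors, on both strands, and capitals mark a match.
Wnt10b, chr15:98778101-98778400, strand -: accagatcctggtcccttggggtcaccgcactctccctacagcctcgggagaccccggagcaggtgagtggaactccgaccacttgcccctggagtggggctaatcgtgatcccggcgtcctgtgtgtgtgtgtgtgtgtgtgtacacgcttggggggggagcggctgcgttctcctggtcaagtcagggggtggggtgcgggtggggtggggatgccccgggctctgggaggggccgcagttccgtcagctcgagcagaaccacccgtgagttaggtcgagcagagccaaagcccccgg
Frzb, chr2:80447347-80447646, strand -: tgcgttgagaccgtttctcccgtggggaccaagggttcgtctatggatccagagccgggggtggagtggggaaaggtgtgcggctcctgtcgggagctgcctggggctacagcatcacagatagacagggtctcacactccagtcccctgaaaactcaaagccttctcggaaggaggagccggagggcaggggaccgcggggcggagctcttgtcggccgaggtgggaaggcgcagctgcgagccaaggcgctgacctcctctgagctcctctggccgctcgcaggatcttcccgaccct
Wnt5b, chr6:119449337-119449636, strand -: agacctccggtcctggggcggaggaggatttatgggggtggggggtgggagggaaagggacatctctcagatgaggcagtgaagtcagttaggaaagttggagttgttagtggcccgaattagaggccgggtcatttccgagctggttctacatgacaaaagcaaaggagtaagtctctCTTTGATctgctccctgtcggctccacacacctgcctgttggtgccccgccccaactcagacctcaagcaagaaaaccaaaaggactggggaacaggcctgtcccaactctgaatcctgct
Dkk2, chr3:132085042-132085341, strand +: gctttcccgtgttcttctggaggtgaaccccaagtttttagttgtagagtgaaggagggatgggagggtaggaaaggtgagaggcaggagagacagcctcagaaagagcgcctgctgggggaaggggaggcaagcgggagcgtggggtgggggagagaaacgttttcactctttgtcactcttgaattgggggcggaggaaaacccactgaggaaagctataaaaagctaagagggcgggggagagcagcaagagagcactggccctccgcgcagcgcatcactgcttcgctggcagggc
The Wnt5b window shown is 1 of 3 for that gene and holds the letters on the gene's own strand at position -71 from the start. Its other windows do not hold them, nor do the windows of Wnt10b, Frzb and Dkk2, which says only that these letters are not in these windows. Among all 35 windows of the set, 2 hold the letters (5.71%), the other being a window of Wnt11, against 1225 of 32851 windows over the genome (3.73%). The GC content of the printed windows was 66.3% for Wnt10b, 64.7% for Frzb, 55% for Wnt5b and 57.7% for Dkk2, beside medians of 66.3% over the set's windows and 52.7% over all windows. These matches are descriptions of sequence, and no binding was measured.

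R-spondins are secreted proteins that strengthen Wnt signalling by protecting Frizzled receptors from removal, through Lgr receptors. Rspo3 had signals of 1563, 2862 and 3548. Rspo2 had 164, 285 and 341. Both had the same order, lowest on young WT and highest on old p16-/-, with ratios in the age comparison of 0.93 and 0.85. For old p16-/- over young WT they were at 1.24 and 1.11, and Rspo2 was at 0.87 with the normexp correction. Rspo1 went the other way at the edge of detection, with signals of 82.1 and 96.4 on the WT arrays and none well above background on old p16-/-. Set at the dimmest level called above background there, it was 2.06-fold lower than on old WT (scanner error of 1.45 on the log2 scale). It was within 2-fold with median scaling (-0.99), quantile normalization (-0.94) or the normexp correction (-0.75). Lgr5, an R-spondin receptor and stem cell marker of hair follicles, had signals of 684, 552 and 635 and stayed between -0.25 and 0.20.

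The core of the pathway inside the cell differed little. Ctnnb1, which encodes beta-catenin, had signals of 20779, 19365 and 22625, with ratios of -0.04 in the age comparison and 0.22 in the p16 comparison. Apc, a scaffold of the destruction complex, had 226, 204 and 221, and Axin1, its other scaffold, had 1561, 1269 and 1352. Over these 3 genes the ratios in the 3 comparisons ran from -0.24 to 0.22, close to the median error of a ratio. Beta-catenin itself is controlled at the protein level, which these arrays do not measure.

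Among the TCF/LEF factors, which carry beta-catenin to DNA, Lef1 was the gene that differed. It had signals of 114, 185 and 643. The p16-/- array was high, at 1.79 over old WT (3.47-fold) and 2.55 over young WT (5.87-fold), and old WT was at 0.76 over young WT. Tcf7 (162, 159 and 137), Tcf7l1 (610, 558 and 590) and Tcf7l2 (793, 904 and 683) stayed between -0.41 and 0.25 in every comparison. Lef1 is itself known as a target of the pathway in several tissues.

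The target and feedback genes did not share 1 direction. Ccn5, a secreted matrix-associated protein first found as a Wnt-induced gene, had signals of 7488, 23030 and 16387. It was high on both old arrays, at 1.68 (3.21-fold) and 1.19 (2.27-fold) over young WT. Its relative Ccn4 had signals of 13088, 15393 and 9119 and was at 0.29 in the age comparison and -0.76 in the p16 comparison, and a second probe gave 0.35 and -0.83. Axin2, the negative feedback gene most widely used as a readout of beta-catenin activity, was dim, with signals of 131 and 159 on the WT arrays, and was not well above background on old p16-/-, where the spot read 49.4. At that reading it was 3.23-fold lower than on old WT and 2.55-fold lower than on young WT. The scanner errors of these ratios were 0.41 and 0.43 on the log2 scale. With the normexp correction the ratios were -0.83 and -0.61 on the log2 scale, within 2-fold. A second probe of Axin2 was not above background on any array, with signals of 37.4, 14.1 and 38.2, and gives no direction. By their brightest probes Lef1 and Axin2, both known beta-catenin targets, lay in opposite directions on old p16-/-. For Axin2 this rests on 1 dim probe that was not above background there.

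Nkd2, an inhibitor that binds Dishevelled, had signals of 8801, 8550 and 6554, and its relative Nkd1 did not pass the background limit on any array. A second probe of Nkd2 went the other way, with signals of 908, 1252 and 1431 and a ratio of 0.71 for old p16-/- over young WT where the brightest probe gave -0.37. No direction is therefore given for Nkd2. In all, 12 genes of the set had further probes, 13 in number. Those measured on both arrays of a comparison all belonged to genes within 2-fold and lay within it too. Of them, 2 and 3 had the opposite sign in the comparisons of old p16-/- with old WT and with young WT. Among the genes past 2-fold only Axin2 had a further probe, which was not above background on any array. No ratio past 2-fold therefore has a second measured probe behind it.

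Set by array, the genes were most often highest on old WT and lowest on old p16-/-. Of the 36 genes above background on all arrays, 17 (47.2%) were highest on old WT, against 28.9% of the 12887 genes so measured. Old p16-/- was the lowest array for 19 (52.8%), against 36.6%. Young WT was highest for 6 (16.7%, against 26.2%) and old p16-/- for 13 (36.1%, against 45%). Between the WT arrays, 29 of 38 ratios were above 0, against 47.4% of all counted genes. Between the old arrays, 23 of 38 were below 0, against 46.7%. The genes were chosen with earlier results of these arrays known, so these shares describe the set and carry no test. Among genes that reached a signal of 1000 on 1 array of the pair or more, 2 of 22 (9.09%) were past 2-fold in the age comparison, both higher, beside 1.73% of all such genes (1.17% higher and 0.562% lower). In the p16 comparison there were 4 of 22 (18.2%), all lower, beside 6.88% (2.67% higher and 4.21% lower). For old p16-/- over young WT there were 8 of 23 (34.8%), 4 higher and 4 lower, beside 7.61% (3.42% higher and 4.19% lower). The genes that remained in the first comparison were Dkk3 and Ccn5, and in the second Wnt5a, Wnt9a, Ror2 and Dkk2.

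**Figure D3:**
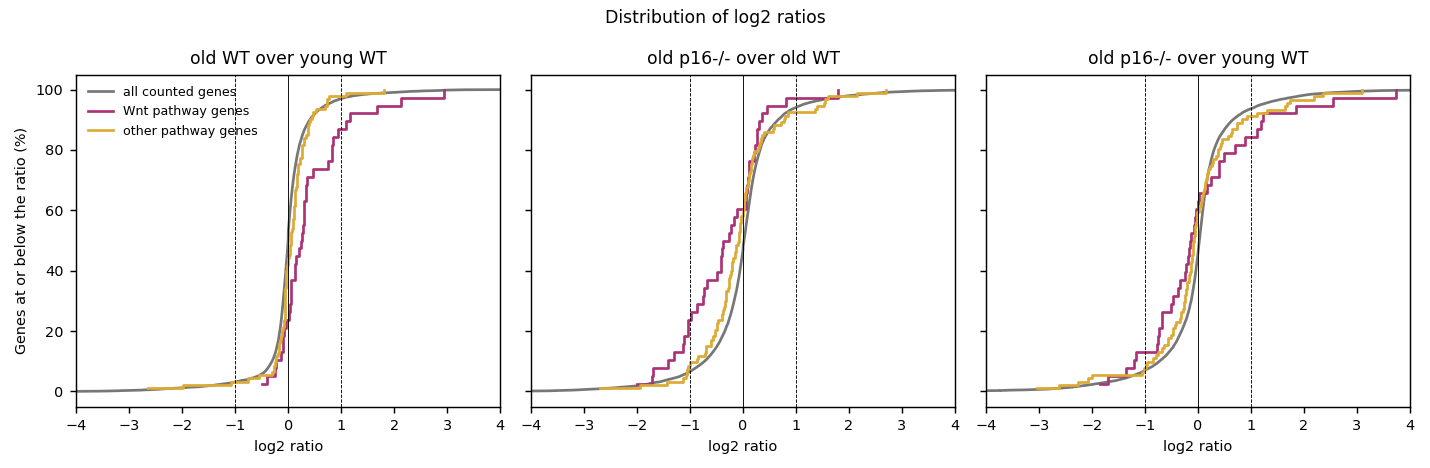
Cumulative share of genes (percent) at or below each log2 ratio, for all counted genes, the 38 measured Wnt genes and the other genes of the pathway, in the 3 comparisons; dashed lines mark 2-fold. At the middle of the distribution the Wnt genes lie to the right of all genes in the first panel (medians 0.26 and 0.00) and to the left in the second (medians -0.32 and 0.02), where the curves cross above 0.

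A list of 115 further pathway genes was set beside them, of which 114 entries were matched to the array (Gpr124, an older name of Adgra2, was the exception), 86 were above background on all arrays and 20 on none. In the age comparison, 2 of 93 were at least 2-fold higher and 3 lower (5.38%), with a median log2 ratio of 0.04. In the p16 comparison, 7 of 93 were higher and 8 lower (16.1%, median -0.08), and for old p16-/- over young WT 8 of 91 were higher and 7 lower (16.5%, median -0.07). The shares of all genes in these comparisons were those given above, 6.09%, 12.5% and 13.3%. The 18 counted cytoplasmic transducers, among them the Dishevelled and Gsk3 genes, held none past 2-fold between the WT arrays. Of 16 other target genes, 14 had a ratio below 0 in the p16 comparison, against 46.7% of all counted genes. Their median was -0.32, and 1 was past 2-fold in each direction. What lies behind these ratios was not tested.

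Sostdc1, a secreted inhibitor of both Wnt and BMP signals, had signals of 3767, 911 and 440. Its order over the arrays was the reverse of that of Wif1, at -1.99 in the age comparison and -3.04 for old p16-/- over young WT, and a second probe gave -1.88 and -3.10. Tle1, a co-repressor that TCF/LEF factors recruit, had signals of 11912, 12163 and 1876 and a ratio of -2.70 in the p16 comparison. Other probes of Tle1 gave -1.05 and -0.86, so the direction was shared and the size was not. Celsr1, an atypical cadherin of planar cell polarity, had signals of 198, 251 and 1643 and was at 2.71 in the p16 comparison. Shisa2, which holds Frizzled receptors inside the cell, had signals of 284, 464 and 1404 and was at 1.59.

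Adgra2, a receptor that relays Wnt7 signals, had signals of 3878, 2542 and 941 and was at -1.44 in the p16 comparison. Dact3, an antagonist of Dishevelled, had signals of 1251, 1231 and 583 and was at -1.08. Lgr6, a further R-spondin receptor, had signals of 431, 594 and 1028 and was at 1.31 for old p16-/- over young WT. Myc, a target of the pathway and also one of the introduced factors, had signals of 2456, 2387 and 1172 and was at -1.03 in the p16 comparison. Whether its probe detects the introduced copy is not known here.

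**Figure D4:**
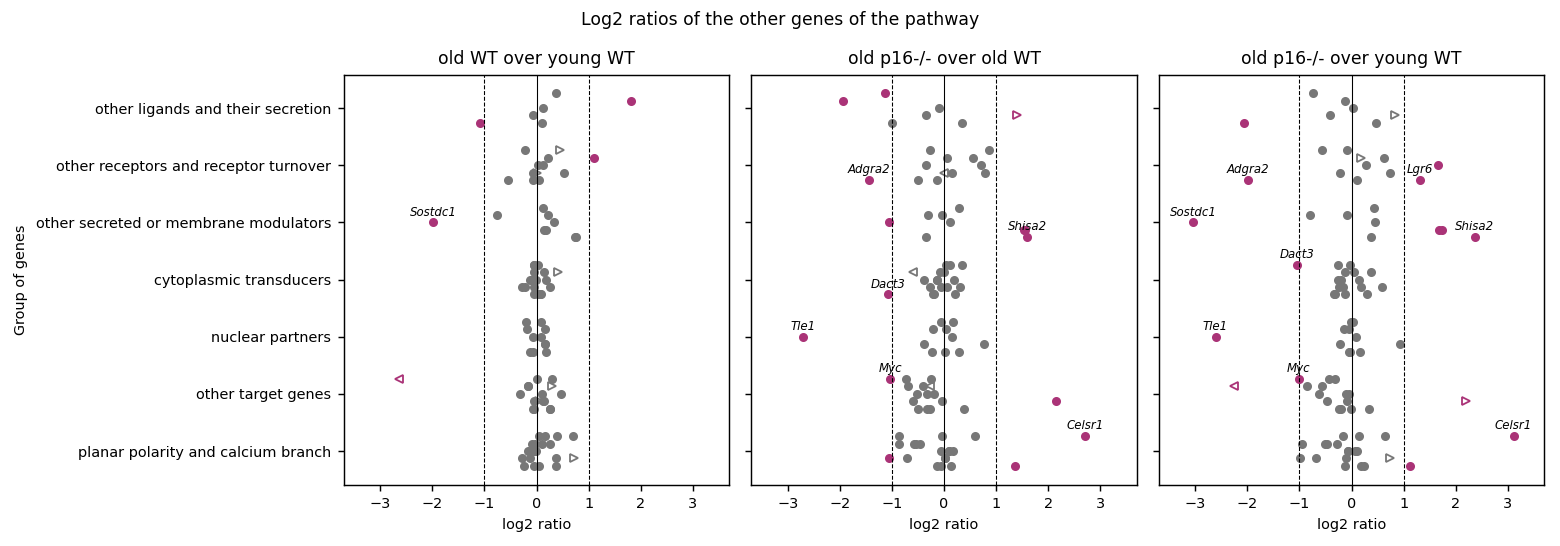
Log2 ratios of the other genes of the pathway in the 3 comparisons (horizontal axis), by group of genes (vertical axis, points spread for legibility); open triangles are bounds, dashed lines mark 2-fold, and genes past it whose brighter signal reached 1000 are named. In the first panel Sostdc1 stands at -1.99, and Tle1 and Celsr1 at -2.70 and 2.71 for old p16-/- over old WT.

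The neighbouring protein-coding genes on the chromosome were read for each gene past 2-fold. In the age comparison, 1 of 8 measured neighbours was at least 2-fold apart (6.09% of all genes), Tbc1d30 beside Wif1 at 1.18. Wnt1, which lies next to Wnt10b, was at 0.12 and -0.09 in the comparisons where Wnt10b was past 2-fold. In the p16 comparison, 3 of 15 neighbours were 2-fold apart (12.5% of all genes): 9930104L06Rik beside Rspo1 at -3.35, Zmat4 beside Sfrp1 at 1.58 and Cacna2d3 beside Wnt5a at 1.48. Zmat4 and Cacna2d3 lay in the direction opposite to the Wnt gene beside them. For old p16-/- over young WT, 3 of 17 were 2-fold apart (13.3% of all genes): Cep112 beside Axin2 at -1.41, Mical2 beside Dkk3 at -1.82 and Cacna2d3 at 1.91. With so few neighbours, these counts do not show whether their shares differ from those of all genes. The neighbours of Lef1, Ror2 and Frzb were within 2-fold in every comparison.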

How the data were processed

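RNA of 3 groups with 1 array each was read on 1-colour Cy3 arrays. Per the file headers, Agilent Feature Extraction 11.5.1.1 made the linear spot intensities, with the background subtracted and no normalization between arrays. The deposited value table matched these intensities to a relative 0.0001 for 39030 of 39030 singly spotted probes (column medians 137, 135 and 132), so its scale is linear and it is not centred.

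Control spots and spots marked as outliers (246, 246 and 267) were left out, and no spot was saturated. Levels are log2 signals, as the mean over a probe's spots, less the 75th percentile of the array (signals of 2138, 2051 and 2058). Accessions were matched to RefSeq genes of GRCm38.p6, which named 27508 of 39429 probes and gave 20825 genes. The probes were designed on another build, so no coordinates are given from that match. A gene was read from its brightest probe and counted if the scanner software called it well above background on 1 or both arrays of a pair. Where 1 array failed, the ratio takes, on that array, the larger of the gene's own level and the dimmest level called above background. It is called a bound but is not a strict limit, because some spots above that dimmest level were not called above background. Bounds that came out under 1-fold were set to 0 on the log2 scale. The normexp correction used limma 3.58.1. The ratio code was tested on simulated data. With 1 array per group no test was run, and precision is limited by that number.

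The members and lists were chosen with earlier results of these data known. Named with values were the members at least 2-fold apart in any comparison, Ctnnb1, Axin2, Lef1 and Lrp6, examples for each role, and the genes of the longer pathway list past 2-fold with a signal of at least 1000. The values of the other members were added for completeness. The longer list, the marker lists, and short lists of interferon and sex-linked genes added later were used as descriptions.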

Additional observations from a re-analysis of the deposited data

How the results depend on the processing

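With the normexp correction, run on the median spot signal and chosen after seeing that the files hold no mean signal, 3 of 38 genes were past 2-fold in the age comparison (median 0.16) and 5 in the p16 comparison. Among genes whose brighter signal reached 1000 there were 2 (median 0.17) and 4, and the median for old p16-/- over young WT was -0.23. With a limit of 1.5-fold there were 10, 16 and 18 of 38 in the 3 comparisons, beside 11.7%, 24.1% and 23.6% of all counted genes. Above background on both arrays, the median in the p16 comparison was -0.25. Under median scaling, quantile normalization, no scaling, no background filter, the mean of detected probes and the deposited value table, counts stayed within 1.5 times of the main ones. They went from 10 to 8 in the p16 comparison with median scaling (Rspo1 and Wnt9a lost) and from 11 to 13 for old p16-/- over young WT with no background filter. The median for old p16-/- over young WT was -0.09 with the mean of detected probes, against -0.14. None of the 26 ratios past 2-fold changed sign under any alternative that gave a value, and 12 of 219 such values came within 2-fold. Apart from normexp, these alternatives start from the same spot intensities and differ in filter, limit, scaling or choice of probes. Many of the 219 values are thus near repeats of the main ones and say little about how stable a ratio is. With normexp 3 of 5, 5 of 10 and 9 of 11 ratios stayed past 2-fold in the 3 comparisons. The planned normexp correction on the mean signal was not run. No paired analysis was possible because each group has 1 array. Under normexp the ratios of Wnt10b and Frzb came within 2-fold in both of these comparisons, as did those of Axin2, Rspo1 and Sfrp1 in the p16 comparison and of Axin2 and Rspo2 for old p16-/- over young WT. That alternative changes both the background correction and the signal it starts from, and the cause was not tested.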

Other observations

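Some genes of the longer pathway list were past 2-fold at signals under 1000 and were picked out after their values were seen. Wnt10a, a ligand of hair follicle and tooth, had signals of 186, 630 and 164, an order shared with Wnt10b and Frzb, with log2 ratios of 1.82 in the age comparison and -1.95 in the p16 comparison. Wnt7a had signals of 609, 276 and 139, lowest on old p16-/-, at -2.07 over young WT. Fzd6 had signals of 183, 375 and 554, in the same order as Rspo2 and Rspo3, at 1.65 for old p16-/- over young WT. Shisa3, a relative of Shisa2, had signals of 298, 317 and 921 and was at 1.54 in the p16 comparison, where Shisa2 was at 1.59. Dkkl1 had signals of 207, 225 and 663 and was at 1.55.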
